A study of Mus musculus with 2 samples.

Results

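Forkhead transcription factors were followed on 2 Affymetrix expression arrays of a mouse embryonic stem (ES) cell line that lacks part of the region affected in Williams-Beuren syndrome (WBS). Members were the probe sets whose single gene symbol in the platform annotation is a forkhead gene symbol, Fox followed by a letter from a to s and a number. They came to 82 of 45101 probe sets and to 37 of 18194 genes. The mouse reference gene table lists 44 forkhead genes, of which those without such a probe set were not analysed here. WBS is a human disorder caused by the loss of a chromosome segment. Both arrays carry the genotype Del1.3MbWBS, a deletion of 1.3 Mb, and belong to 1 group of the line ESSP9. The cells were grown with leukaemia inhibitory factor and 20% serum replacement on feeder cells. The arrays are labelled as biological replicates, without a statement that separate cultures were used, so the spread between them may be technical. No line without the deletion was analysed here, so nothing below compares genotypes.

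Forkhead proteins share a winged-helix DNA-binding domain, and members of some subfamilies can bind nucleosomal DNA and open chromatin for other factors. Some forkhead factors act in nearly every cell, in the cell cycle or downstream of insulin signalling. Others are confined to lineages, among them endoderm, mesenchyme, parts of the nervous system and regulatory T cells. In ES cells Foxd3 and Foxh1 are known as factors of the pluripotent state and of Nodal signalling, and FoxO proteins as activators of pluripotency genes.

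Values are log2 expression values made with RMA (robust multi-array average), given per array and as mean ± SD over the 2 arrays. A gene is represented by its probe set with the highest mean. It is called above background where both arrays and their mean exceed the 95th percentile of the values of 39 olfactory receptor genes (5.59 for the mean), whose transcripts are not expected in ES cells. Probes differ in affinity, so a value shows how far a gene lay from this threshold and not how it ranks against another gene. The number of arrays limits the precision. All 10 pluripotency markers (9.76 to 14.09), among them Pou5f1 at 12.63 ± 0.020, Nanog at 12.11 ± 0.063 and Sox2 at 12.11 ± 0.047, and all 14 fibroblast markers (8.92 to 14.87), among them Col1a1 at 12.67 ± 0.021, Col1a2 at 14.87 ± 0.0061 and Col3a1 at 14.86 ± 0.0025, were above background. The RNA thus held transcripts of both kinds. In such bulk RNA, fewer cells of a type and less RNA per cell cannot be told apart.

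Of the 37 forkhead genes, 24 (64.9%) were above background, beside 68.4% of all genes, so the share in the family lay near that of the arrays as a whole. Among the 24, the mean lay more than 2 log2 units above the threshold in 17, between 1 and 2 units above it in 4, and within 1 unit in 3 (Foxa2, Foxl2 and Foxq1). Of the 13 others, 5 lay within 0.5 log2 units of the threshold (Foxa1, Foxb2, Foxd2, Foxe3 and Foxl1) and 8 lay further below. By the role assigned here, the count was 7 of 7 widely expressed and cell cycle genes and 3 of 3 FoxO genes. It was 3 of 4 FoxP genes, 2 of 3 early embryo genes and 6 of 9 mesenchyme and mesoderm genes. For the FoxA genes it was 1 of 3, and for the ectoderm and nervous system genes 1 of 6. The groups also differed in probe set number. Each of the 7 widely expressed and 3 FoxO genes had several probe sets. The 3 FoxA genes had 1 each, as had the ectoderm and nervous system genes except Foxn1. Over all genes, 83.6% of those with several and 53.4% of those with 1 were above background. Foxd2, Foxf2 and Foxn1 had several and did not pass, while 6 forkhead genes with 1 did. Role and probe set number were not separated here. For other transcription factor families, the count was 21 of 33 Hox cluster genes (63.6%), 14 of 19 Sox genes (73.7%) and 5 of 12 T-box genes (41.7%); the differences between families were not tested.

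**Figure D1:**
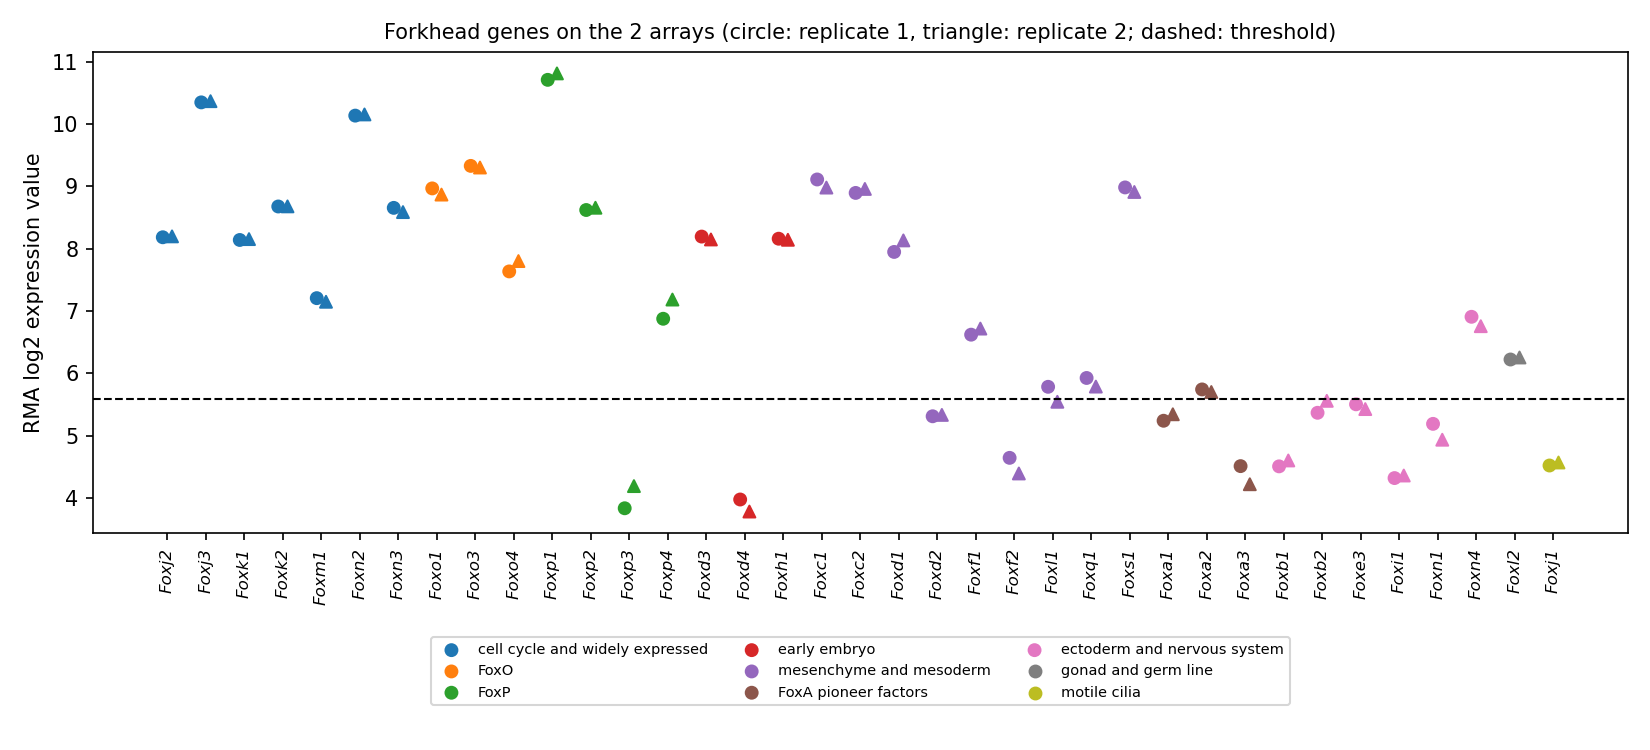
RMA log2 value of each forkhead gene on its brightest probe set, with a circle for replicate 1 and a triangle for replicate 2, coloured by role; the dashed line is the threshold of 5.59. The 7 widely expressed genes and the 3 FoxO genes lie above the line on both arrays, and Foxl1 lies above it on replicate 1 alone.

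Promoter sequence is shown for the members at the extremes of CpG content, because CpG content was a feature of these genes that the choice of members did not use. The windows run from 250 bases before to 50 bases after a transcription start in RefSeq (build GRCm38.p6). They are printed 5′ to 3′ on the gene's strand with each CpG in capitals. The sequences are, in turn, the window with the highest CpG ratio (CpG count over that expected from the C and G content) among members above background, the lowest such window, another start of that same gene, and the highest and lowest among members not above background.
Foxk2, chr11:121259737-121260036, plus strand: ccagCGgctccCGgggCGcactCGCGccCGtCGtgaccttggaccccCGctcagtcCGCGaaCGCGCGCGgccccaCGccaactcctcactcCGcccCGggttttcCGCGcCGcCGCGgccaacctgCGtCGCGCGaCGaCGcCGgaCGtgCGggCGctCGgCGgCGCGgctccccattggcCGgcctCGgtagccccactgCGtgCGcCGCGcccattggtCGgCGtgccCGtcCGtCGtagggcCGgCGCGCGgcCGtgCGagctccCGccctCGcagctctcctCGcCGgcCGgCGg
Foxp1, chr6:99266466-99266765, minus strand: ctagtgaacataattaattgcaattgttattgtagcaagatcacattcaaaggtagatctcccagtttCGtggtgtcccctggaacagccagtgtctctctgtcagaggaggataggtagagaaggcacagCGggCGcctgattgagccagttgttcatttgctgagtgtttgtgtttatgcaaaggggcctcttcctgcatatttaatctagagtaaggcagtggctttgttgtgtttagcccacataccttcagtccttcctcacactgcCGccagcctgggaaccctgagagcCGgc
Foxp1, chr6:99028249-99028548, minus strand: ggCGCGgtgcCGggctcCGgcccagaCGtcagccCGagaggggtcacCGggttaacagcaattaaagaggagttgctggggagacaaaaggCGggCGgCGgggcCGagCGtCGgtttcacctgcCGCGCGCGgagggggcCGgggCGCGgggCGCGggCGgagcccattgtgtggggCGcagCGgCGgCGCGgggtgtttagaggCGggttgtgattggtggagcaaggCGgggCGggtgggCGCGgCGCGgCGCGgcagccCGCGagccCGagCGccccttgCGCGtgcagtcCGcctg
Foxa1, chr12:57546062-57546361, minus strand: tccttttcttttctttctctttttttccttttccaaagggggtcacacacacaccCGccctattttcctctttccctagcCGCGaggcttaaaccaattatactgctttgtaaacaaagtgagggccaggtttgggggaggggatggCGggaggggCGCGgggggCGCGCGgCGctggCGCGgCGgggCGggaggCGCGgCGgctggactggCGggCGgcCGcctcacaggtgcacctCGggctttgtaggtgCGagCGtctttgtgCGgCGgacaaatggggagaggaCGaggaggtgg
Foxi1, chr11:34208040-34208339, minus strand: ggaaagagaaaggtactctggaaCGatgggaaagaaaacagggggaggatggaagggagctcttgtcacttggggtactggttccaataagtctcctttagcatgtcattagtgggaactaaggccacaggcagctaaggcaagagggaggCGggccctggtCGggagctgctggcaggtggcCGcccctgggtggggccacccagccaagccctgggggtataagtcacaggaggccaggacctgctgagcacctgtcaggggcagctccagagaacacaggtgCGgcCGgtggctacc

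The CpG ratio was 1.28 at Foxk2, with 59 CpG in 300 bases, and 0.23 at Foxi1, with 6. Foxp1 held both kinds: its windows had ratios of 0.50, 0.28 and 1.11, so that a single gene had CpG-poor and CpG-rich starts. Taking the highest window of each gene, 13 of the 14 members above background with a window here had a ratio of at least 0.6 (92.9%), as had 5 of the 10 that were not. The median ratio was 0.82 in the former and 0.56 in the latter. Over all genes with a window the shares were 74.9% of 10019 genes above background and 26.3% of 4434 that were not. The forkhead genes thus followed the direction seen over the whole array, and no difference from it was tested. The exception among members above background was Foxn3, at 0.29. Foxa1, Foxf2, Foxd2, Foxd4 and Foxa3 had ratios of 0.62 to 0.93 and were not above background.

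**Figure D2:**
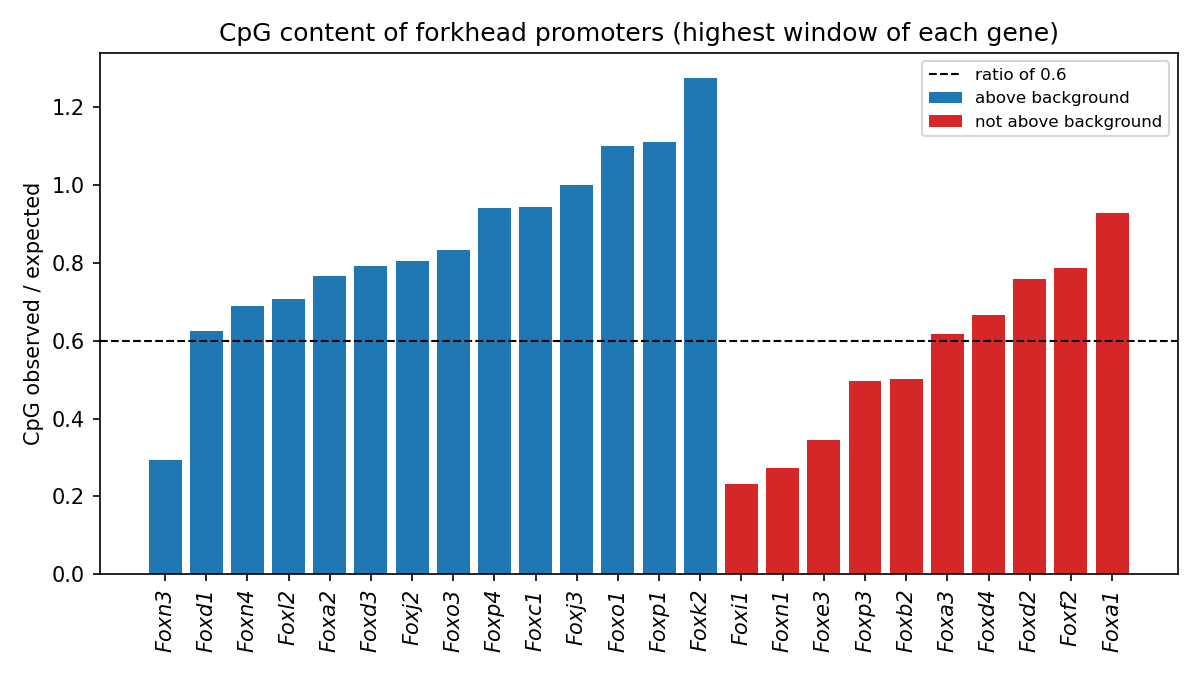
CpG observed over expected in the promoter window of each forkhead gene (the highest window where a gene has several), blue for genes above background and red for those not above it, with a dashed line at 0.6. Blue bars reach 0.6 in 13 of 14 genes and red bars in 5 of 10.

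The letters of the forkhead core motif, GTAAACA on either strand, were in 1 of the 29 forkhead windows (3.45%), that of Foxa1, and in 3.65% of all 32851 windows. These are matches of letters and not binding sites.

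The members placed in the widely expressed and cell cycle group were all above background, 7 of 7. The group was formed for such genes, with earlier results of these data known, so its full count was not a test. Foxm1 drives mitotic genes in dividing cells. It was at 7.21 on replicate 1 and 7.15 on replicate 2 (7.18 ± 0.041), slightly lower on the second array. Foxk1 and Foxk2 are repressors that work with SIN3 and with the BAP1 deubiquitinase. Foxk1 was at 8.14 and 8.16 (8.15 ± 0.0097) and Foxk2 at 8.68 on both arrays (8.68 ± 0.0013). Foxj2 was at 8.19 and 8.20 (8.19 ± 0.010), Foxj3 at 10.35 and 10.37 (10.36 ± 0.013). Among the FoxN genes outside thymus and retina, Foxn2 was at 10.14 and 10.16 (10.15 ± 0.013), and Foxn3, a repressor linked to the DNA damage checkpoint, at 8.66 and 8.59 (8.62 ± 0.048). The largest difference between the arrays among the 7 was 0.068 log2 units, for Foxn3, which was lower on replicate 2.

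Among these factors, lists of partners or targets were made for Foxm1 and the FoxK genes only. All measured genes on these lists were above background under the reported setting. The FOXM1 partner list counted 6 of 6, with the MuvB-associated factor genes Mybl2 at 9.70 ± 0.028, Lin9 at 8.21 ± 0.011 and Lin37 at 7.67 ± 0.10. All 10 measured FOXM1 target genes were above background as well, among them the mitotic cyclin gene Ccnb2 at 10.91 ± 0.066, the kinase gene Plk1 at 9.80 ± 0.065 and Aurkb, the kinase of the chromosomal passenger complex, at 8.56 ± 0.096. Unshared probe sets are here those without the suffix _a_at, _s_at or _x_at. With these alone, 5 of the 6 target genes still measured were above background. With each gene given the median of its probe sets, 9 of the 10 target genes were above it. The FOXK partner list counted 9 of 9, with the corepressor genes Sin3a at 9.60 ± 0.047 and Sin3b at 11.50 ± 0.037 and the deubiquitinase gene Bap1 at 10.05 ± 0.029. Beside these full counts stands the share of 68.4% over all genes.

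**Figure D3:**
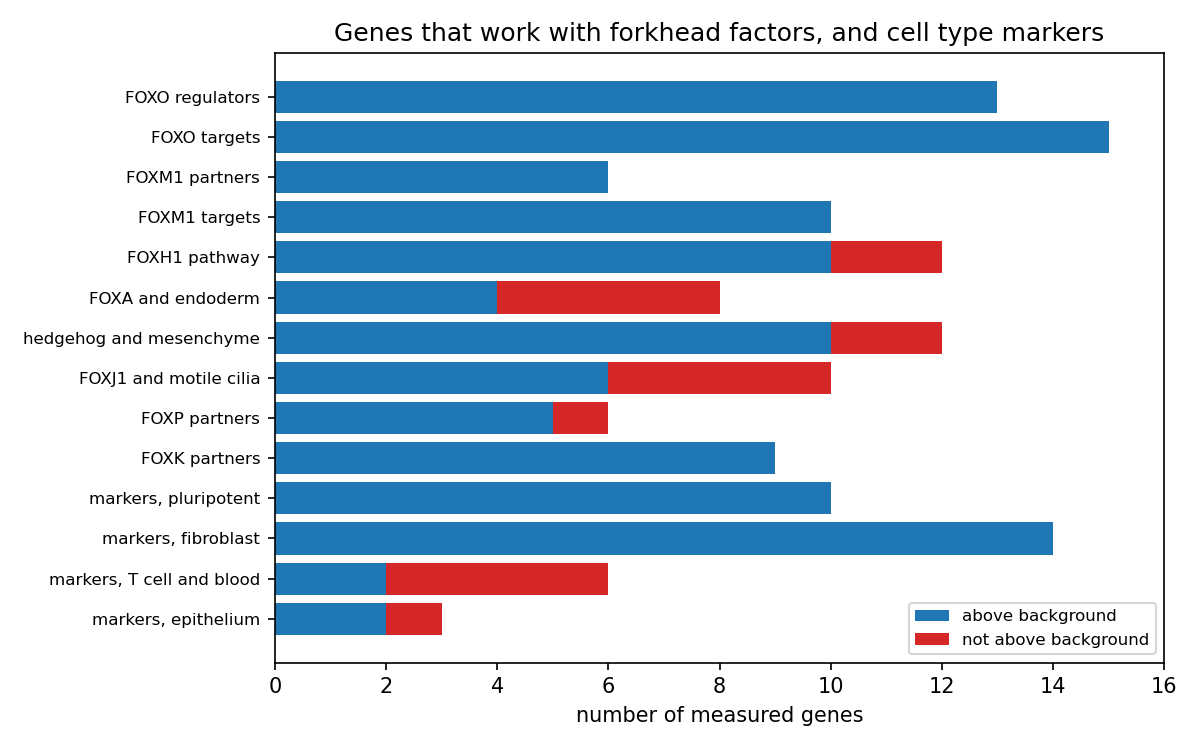
Number of measured genes above background (blue) and not above it (red) in each list of forkhead partners and targets and in each marker list. The FOXO, FOXM1 and FOXK lists and the pluripotency and fibroblast markers have no red part, while 4 of 8 genes in the endoderm list and 4 of 10 in the motile cilia list are red.

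All 3 FoxO genes measured were above background. FoxO proteins are held in the cytoplasm when AKT phosphorylates them and otherwise activate genes of cell cycle arrest, apoptosis and antioxidant defence. Foxo1 was at 8.97 and 8.87 (8.92 ± 0.070), Foxo3 at 9.33 and 9.30 (9.32 ± 0.019), and Foxo4 at 7.64 and 7.80 (7.72 ± 0.12). On these probe sets Foxo1 and Foxo3 were lower on replicate 2 and Foxo4 was higher. Each of these genes also had a probe set that differed in the opposite direction. Their regulators were above background in 13 of 13 measured genes, with the kinase genes Akt1 at 9.71 ± 0.10, Akt2 at 9.16 ± 0.0092 and Sgk1 at 12.28 ± 0.047. The FOXO target list counted 15 of 15, with the cell cycle inhibitor gene Cdkn1b at 8.25 ± 0.075, the pro-apoptotic gene Bcl2l11 at 9.17 ± 0.092 and Ccng2, an atypical cyclin, at 8.52 ± 0.043. Over all genes, 68.4% were above background. Transcript levels do not report the phosphorylation or location of FoxO proteins.

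In the FoxP group 3 of 4 genes were above background. These factors act as dimers and are mostly repressors. Foxp1, which has a splice form typical of ES cells, was at 10.71 and 10.81 (10.76 ± 0.073), and Foxp2, studied for its part in speech circuits and lung development, at 8.62 and 8.66 (8.64 ± 0.026). Foxp4 was at 6.88 on replicate 1 and 7.19 on replicate 2 (7.03 ± 0.22). On these probe sets all 4 FoxP genes were higher on replicate 2. For Foxp1, Foxp2 and Foxp4, other probe sets of the same gene went in either direction. Foxp3, the master regulator of regulatory T cells, was far below the threshold at 3.84 and 4.19 (4.02 ± 0.25). Of 6 T cell and blood markers 2 were above background (Cd3e at 6.56 ± 0.023 and Cd4 at 6.10 ± 0.034), and Ptprc at 4.05 ± 0.13 and Il2ra at 4.48 ± 0.032 were not. The list ran from 3.92 to 6.56. The list of FOXP partner genes counted 5 of 6 above background, among them the corepressor genes Ctbp1 at 10.64 ± 0.025, Gatad2b at 8.90 ± 0.017 and Mta1 at 8.35 ± 0.063, whereas the cortical neuron factor gene Tbr1 was at 3.19 ± 0.00074. Both list counts stand beside the share of 68.4% over all genes.

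In the early embryo group 2 of 3 genes were above background. Foxd3, which maintains the pluripotent epiblast and neural crest, was at 8.20 and 8.15 (8.17 ± 0.033). Foxh1, the DNA-binding partner of SMAD2 and SMAD3 in Nodal signalling, was at 8.16 and 8.14 (8.15 ± 0.012). Foxd4, known from early neural ectoderm, was not above background at 3.98 and 3.79 (3.88 ± 0.14). The FOXH1 pathway list counted 10 of 12 above background, beside 68.4% of all genes. Among the 10 were the effector genes Smad2 at 9.04 ± 0.040, Smad3 at 9.11 ± 0.026 and Smad4 at 11.55 ± 0.025. The genes not above background were Gsc at 4.01 ± 0.041 and Mixl1 at 5.08 ± 0.023, both markers of the primitive streak and mesendoderm.

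Of 9 members assigned here to the mesenchyme and mesoderm group, 6 were above background. Foxc1 was at 9.11 and 8.98 (9.05 ± 0.092) and Foxc2 at 8.90 and 8.96 (8.93 ± 0.045); both act in paraxial mesoderm, vessels and neural crest mesenchyme. Foxs1, known from pericytes and neural crest derivatives, was at 8.98 and 8.91 (8.95 ± 0.052), and Foxd1, a marker of stromal progenitors of the kidney, at 7.95 and 8.13 (8.04 ± 0.13). Foxf1, a hedgehog target of lung and gut mesenchyme, was at 6.62 and 6.72 (6.67 ± 0.069). These 5 lay above the threshold by more than 1 log2 unit on both arrays.

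Around the threshold stood Foxq1, at 5.93 and 5.79 (5.86 ± 0.098), and Foxl1, a gene of subepithelial gut mesenchyme. The other Foxq1 probe set (1438558_x_at) was far lower, at 3.49. Foxl1 was at 5.79 on replicate 1 and 5.55 on replicate 2 (5.67 ± 0.17), and thus passed on the first array alone. Foxd2 at 5.31 and 5.34 (5.32 ± 0.015) and Foxf2 at 4.65 and 4.40 (4.52 ± 0.18) were below it on both. On these arrays the 14 fibroblast markers ran from 8.92 to 14.87, all of them above background. Their part in the levels of the mesenchymal forkhead genes was not tested. In the hedgehog and mesenchyme list 10 of 12 genes were above background, beside 68.4% of all genes. The 10 included the ligand gene Dhh at 5.83 ± 0.055, the receptor gene Ptch1 at 9.30 ± 0.10 and the transducer gene Smo at 9.15 ± 0.060. The ligand genes Shh, at 4.75 ± 0.088, and Ihh, at 5.00 ± 0.23, were not above it.

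Several of these genes lie side by side in the genome, and some neighbours differed in their calls while others had the same call. On chromosome 8, Foxf1 and Foxc2 have 1 coding gene between them (Mthfsd) and were both above background, while Foxl1, the next coding gene after Foxc2, passed on 1 array only. On chromosome 13, Foxq1, Foxf2 and Foxc1 are consecutive coding genes. Foxf2, the middle one, was below the threshold by over 0.5 log2 units, while Foxq1 and Foxc1 on either side passed. The calls of Foxl1 and Foxq1 changed under other settings. On chromosome 4, the adjacent Foxd2 and Foxe3 were both not above background.

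The FoxA genes, which encode pioneer factors of endoderm, lay just above the threshold (Foxa2) or below it (Foxa1 and Foxa3). Foxa2 was at 5.74 and 5.70 (5.72 ± 0.029) and passed by 0.13 log2 units on the mean. It did not pass with the 99th percentile of the olfactory receptors, nor with vomeronasal and taste receptors as reference. Foxa1 was at 5.24 and 5.35 (5.29 ± 0.073) and Foxa3 at 4.51 and 4.22 (4.37 ± 0.21), and neither passed. Of 8 endoderm genes measured, 4 were above background, beside 68.4% of all genes. The 4 included Gata6 at 7.72 ± 0.013, Sox17 at 5.81 ± 0.043 and Hnf4a at 6.37 ± 0.21. Gata4 at 5.45 ± 0.050 and Cer1 at 4.89 ± 0.12 were not above background. The count was 2 of 8 when each gene was given the median of its probe sets.

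Among ectoderm and nervous system members, 1 of 6 was above background. This was Foxn4, a factor of retinal and spinal cord progenitors, at 6.91 and 6.76 (6.83 ± 0.11). Foxb1, of the hypothalamus, was at 4.51 and 4.60 (4.56 ± 0.067), and Foxi1, of the inner ear and kidney, at 4.32 and 4.36 (4.34 ± 0.029). Foxn1, the regulator of thymic epithelium, was at 5.19 and 4.94 (5.06 ± 0.18). Of 3 epithelial markers, Epcam at 10.36 ± 0.044, which ES cells also express, and Krt5 at 6.34 ± 0.19 were above background and Krt14 at 4.80 ± 0.058 was not. Foxb2 at 5.37 and 5.56 (5.47 ± 0.14) and the lens gene Foxe3 at 5.51 and 5.43 (5.47 ± 0.054) lay just below the threshold, and both passed at the 90th percentile of the olfactory receptors.

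Foxl2, which maintains granulosa cells of the ovary, was above background at 6.23 and 6.27 (6.25 ± 0.022). Its other probe set (1444002_at) was at 4.37 and not above background. Foxj1, the regulator of motile cilia, was not above background, at 4.53 and 4.58 (4.55 ± 0.035). In the motile cilia list 6 of 10 genes were above background, near the share of 68.4% over all genes. Ccno at 5.90 ± 0.062, Rfx2 at 7.03 ± 0.014 and Dnah11 at 6.26 ± 0.076 were above it. Rfx3 at 5.56 ± 0.0996 and the axonemal dynein gene Dnah5 at 4.16 ± 0.10 were not.

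Different probe sets of the same forkhead gene often gave different calls. Of the 82 probe sets, 53 (64.6%) were above background, beside 61.8% of all probe sets with 1 gene. Among the 21 genes with several probe sets, all probe sets passed in 7, none passed in 3 (Foxd2, Foxf2 and Foxn1) and some passed in 11. The range between the lowest and the highest probe set of a gene ran from 0.32 log2 units in Foxf1 to 6.46 in Foxj3, with a median of 2.37. It exceeded the largest SD between arrays in all 21.

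Foxj3 had probe sets at 10.36 (1435362_at), 6.13 (1438220_at) and 3.90 (1459055_at). Foxp1 had 8 probe sets, from 5.47 (1443258_at) to 10.76 (1435222_at), of which 7 passed. Foxp2 had 6, from 3.24 (1441365_at) to 8.64 (1438232_at), of which 3 passed. These spreads were far larger than the replicate error, whose largest SD was 0.10 for a Foxp1 probe set and 0.062 for a Foxp2 probe set.

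Probe sets that the annotation assigns to the same sequence accession could be compared in 10 cases, and in 6 of them the range was over 1 log2 unit. The widest was Foxj2, whose probe sets 1420374_at and 1420373_at gave 8.19 and 4.57. By contrast, 3 Foxm1 probe sets from 1 accession lay between 7.10 and 7.18, while 1437138_at, a Foxm1 probe set from another accession, was at 3.21.

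The number of probe sets bears on the calls, since the brightest of several stands for a gene. Forkhead genes with several probe sets were above background in 18 of 21 cases (85.7%) and those with 1 probe set in 6 of 16 (37.5%). Over all genes the shares were 83.6% and 53.4%. The genes with 1 probe set that passed were Foxa2, Foxc2, Foxd1, Foxd3, Foxn4 and Foxs1.

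**Figure D4:**
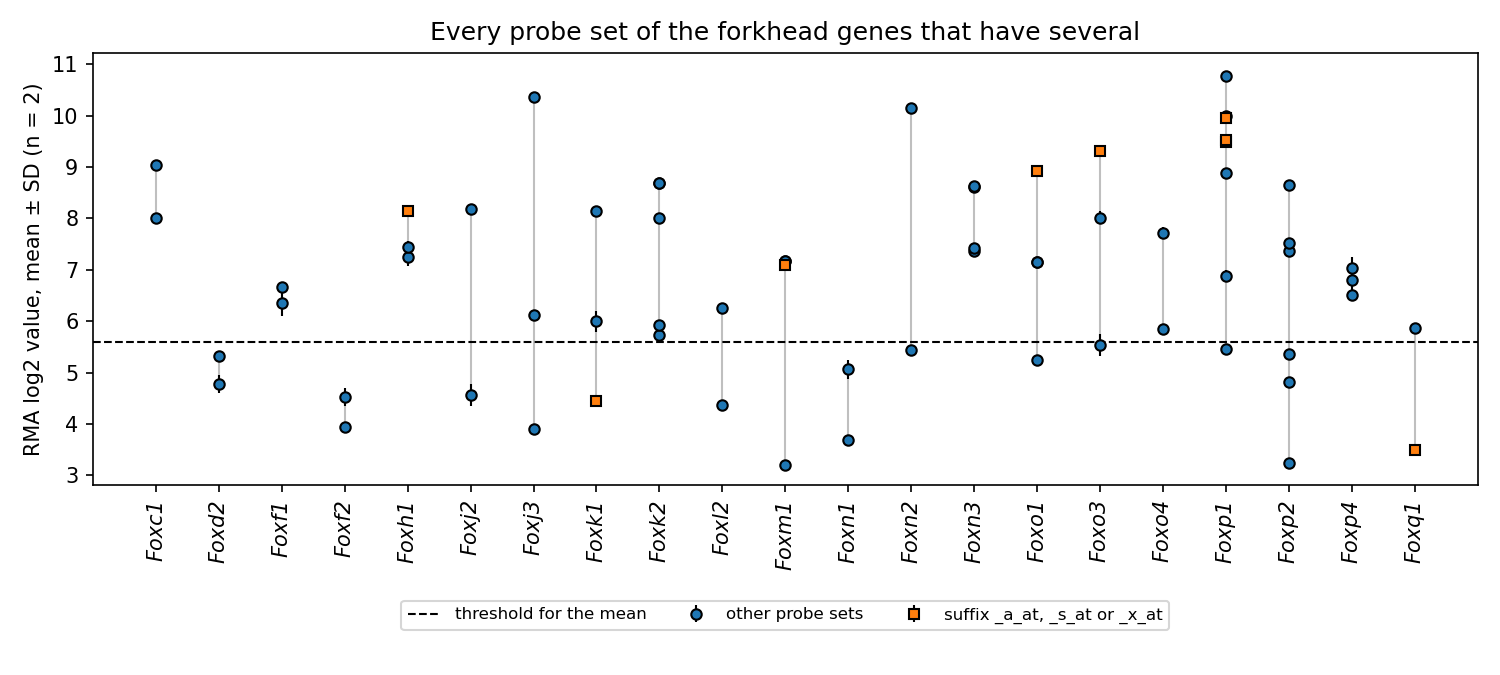
Every probe set of the 21 forkhead genes that have several, as mean RMA log2 value with SD over the 2 arrays. Squares are probe sets with the suffix _a_at, _s_at or _x_at, each of which still names a single gene in the annotation. The dashed line is the threshold of 5.59. Foxj3 spans 6.46 log2 units, and in 11 genes the probe sets fall on both sides of the line.

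The arrays gave nearly the same values for the forkhead genes. Over the 25 that exceeded the threshold on at least 1 array, the difference, replicate 2 minus replicate 1, had an SD of 0.117 log2 units, beside 0.114 over 12769 genes. Its median was 0.0018, beside 0.015 over all genes. None of the 25 differed by 1.5-fold, as 10 of the 12769 genes did (0.0783%). In 13 of the 25 the value was higher on replicate 2 and in 12 on replicate 1.

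Foxp4 had the largest difference of the 25, at 0.31 log2 units, outside the central 95% of all genes (-0.24 to 0.24). It was the 1 forkhead gene of the 25 outside this range, beside 640 of the 12769 genes, which the range leaves out by construction. Its 3 probe sets differed by 0.31 (1431088_at), 0.27 (1429719_at) and -0.033 (1431437_at), so 1 of the 3 did not differ in the same direction. When each member was set among genes of similar level, 36 of 37 lay inside the central 95% and Foxp4 lay outside (its bin ran from -0.27 to 0.29). The members not above background had a median absolute difference of 0.19 log2 units, against 0.061 in those above it. The corresponding values over all genes were 0.12 and 0.058.

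**Figure D5:**
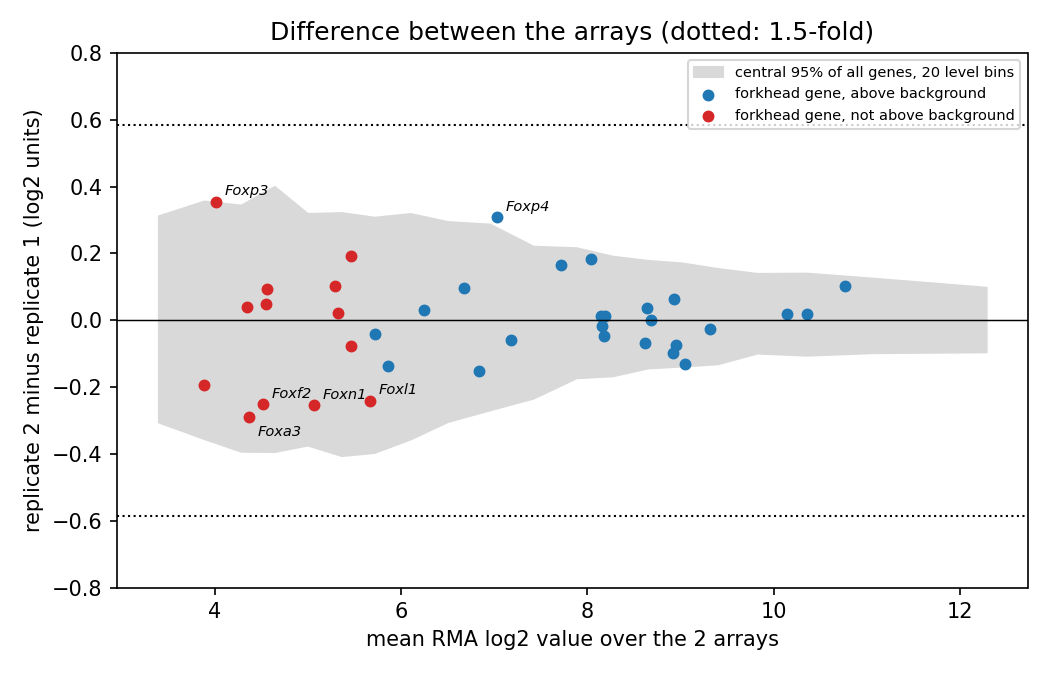
Difference between the arrays, replicate 2 minus replicate 1, against the mean RMA log2 value for the 37 forkhead genes, blue above background and red not above it; grey is the central 95% of all genes in 20 bins of level and dotted lines mark 1.5-fold. The band is drawn by joining the bin limits at the median level of each bin. Foxp4 lies clear of the band, Foxp3 lies at its upper edge, and no point reaches the dotted lines.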

How the data were processed

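The deposited values are on a log2 scale and were made by the authors with RMA, per the submitters' processing notes. RMA corrects background, quantile-normalizes the arrays processed together and summarises probes, so a shift common to most genes is removed. The RMA version, and the arrays it was run on, were not given in the sources used here. Per the labels' protocols, biotin-labelled cRNA came from 6 µg of Trizol-extracted total RNA. Of 45101 probe sets, 34958 name 1 gene, 932 several and 9211 none here. All 37 forkhead identifiers matched the mouse reference table (GRCm38.p6) with the same symbol.

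Calls, counts and differences were computed with Python 3.11.15 and pandas 2.3.3, and loess with statsmodels 0.14.6; the code was checked on data with known answers. With 1 group, no test was run. The members, role groups, partner lists and markers were chosen with earlier results of these data known. The text names every measured forkhead gene and, of each other list, 3 members above background and 2 not above it, taken in list order. Promoter windows were matched by symbol for 24 of the 37 genes. Protein features, which had been planned, were not analysed here. Alternatives were other probe set rules, percentiles, reference genes, centring, loess, no filter on dim genes and each array alone.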

Additional observations from a re-analysis of the deposited data

How the results depend on the processing

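Of 214 alternative values for the counts and for the spread between arrays, 203 stayed within 1.5 times the reported count or within the spread between arrays, and 11 did not. The forkhead count of 24 of 37 became 26 when each gene took the median of its probe sets, 27 of 35 with unshared probe sets, 23 at the 99th percentile, 29 at the 90th and 22 with the 37 vomeronasal and taste receptors as reference. Each array alone gave 24 to 25, the addition being Foxl1, and centring left it at 24. Under the reported setting and all 8 alternatives, 22 genes were above background and 8 were not in any setting in which they were measured. The other 7 changed call under at least 1: Foxa1, Foxa2, Foxb2, Foxd2, Foxe3, Foxl1 and Foxq1. The ectoderm and nervous system count of 1 became 3 with the median rule, 3 with unshared probe sets and 3 at the 90th percentile. The FoxA count of 1 became 0 at the 99th percentile, 2 at the 90th and 0 with the other receptors. With those receptors the motile cilia count of 6 became 3 and the T cell and blood count of 2 became 1. The median rule took the endoderm count from 4 to 2. Unshared probe sets gave 5 of 6 FOXM1 targets and 1 of 2 epithelial markers, fewer genes being measured. Both the median and the unshared rule also lower the threshold, from 5.59 to 5.28. The SD of the difference over forkhead genes was 0.114 to 0.146 and 0 passed 1.5-fold under every alternative. Giving each gene the median of its probe sets moved the level of 21 genes by more than their SD. Unshared probe sets moved 3 levels, those of Foxh1 to 7.44, Foxo1 to 7.15 and Foxo3 to 8.02. No paired analysis was possible because the 2 arrays form 1 group. Near the threshold, signal over background does not separate silent from weakly expressed genes.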

Other observations

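The annotation assigns 2 further probe sets to a forkhead gene together with other genes, and these were left out of the members. The one shared by Tex52, Pebp1 and Foxm1 (1453107_s_at) was at 7.29 and 7.48 (7.39 ± 0.13, n = 2) and the one shared by Gm38485 and Foxo3 (1444226_at) at 5.23 and 5.28 (5.26 ± 0.037), so only the former was above background. Foxl2os, an RNA antisense to Foxl2, was at 4.24 and 4.40 (4.32 ± 0.11) and not above background, while the Foxl2 probe sets were at 6.25 (1456410_at) and 4.37 (1444002_at). These probe sets were singled out after their values were seen.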
